A study of Mus musculus with 2 samples.

Results

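The genes Mt1, Mt2 and Mt4 encode metallothioneins, and they were taken by symbol as 3 of the 19059 genes measured in mouse dorsal skin. The series compared 1 wildtype C57BL/6J mouse with 1 Eppk1 knockout (Eppk1-/-) mouse backcrossed into C57BL/6J, neither of them treated, and addressed what loss of epiplakin, a cytoskeletal linker of epithelial cells, does to the transcripts of skin. The punch biopsy of each mouse was dissociated with enzymes, fixed and read with the 10x Genomics Fixed RNA Profiling assay, in which pairs of probes are ligated on the RNA and counted by unique molecular identifiers (UMIs). Age and sex of the mice are not given in the sources used here. A single library stands for each genotype, so differences between the mice were not testable and p-values are absent throughout. All intervals are exact 95% intervals that cover counting error only, not the spread between mice.

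Metallothioneins are small proteins with many cysteines that bind zinc and copper. Mt1 and Mt2 are made by most cells and are switched on by zinc, cadmium, glucocorticoids and oxidative stress, zinc acting through the transcription factor MTF1, which binds metal response elements in their promoters. Mt4 is known as a metallothionein of differentiating stratified epithelia. Mt3, the remaining member of the mouse gene cluster, is best known from the brain. In the epidermis, cells divide in the basal layer, stop dividing and enter the spinous layer, make barrier proteins in the granular layer and end as dead cornified cells.

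The 4 genes lie in a row on the plus strand of chromosome 8 (GRCm38, GENCODE M21), within 43.1 kb. Mt4 (ENSMUSG00000031757) comes first at chr8:94137197-94139031, followed by Mt3 (ENSMUSG00000031760) at chr8:94152607-94154146, Mt2 (ENSMUSG00000031762) at chr8:94172664-94173568 and Mt1 (ENSMUSG00000031765) at chr8:94179082-94180327. Mt1 begins 5513 bases after the end of Mt2, and the first annotated transcript of each gene has 3 exons. The coding sequences are shown because they carry the property that names the family and because the assay reads each gene with probes to its own transcript. Capitals mark the cysteine codons, of which each sequence has 20.
Mt1: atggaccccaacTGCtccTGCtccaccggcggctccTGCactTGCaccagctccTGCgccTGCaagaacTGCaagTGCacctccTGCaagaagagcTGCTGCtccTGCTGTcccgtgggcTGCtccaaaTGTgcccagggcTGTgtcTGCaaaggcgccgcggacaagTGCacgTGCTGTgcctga
Mt2: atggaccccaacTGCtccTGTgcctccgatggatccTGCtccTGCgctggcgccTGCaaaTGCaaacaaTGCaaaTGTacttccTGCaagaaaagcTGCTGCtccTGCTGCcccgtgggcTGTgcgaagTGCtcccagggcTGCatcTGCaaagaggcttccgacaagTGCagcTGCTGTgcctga
Mt4: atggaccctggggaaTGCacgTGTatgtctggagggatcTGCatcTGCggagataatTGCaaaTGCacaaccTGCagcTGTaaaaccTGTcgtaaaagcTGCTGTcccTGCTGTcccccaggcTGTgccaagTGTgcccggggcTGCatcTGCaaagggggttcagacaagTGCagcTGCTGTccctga

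Mt1 and Mt2 have 61 codons before the stop and Mt4 has 62. Of the 20 cysteine codons, 16 are TGC in Mt1 and in Mt2 and 12 in Mt4, the rest being TGT. Aligned over their coding sequences, Mt1 and Mt2 share 79.6% of bases, Mt2 and Mt4 73.8%, and Mt1 and Mt4 66.8%. The longest run of bases that the annotated transcripts share is 20 for Mt1 and Mt2, 18 for Mt2 and Mt4, and 11 for Mt1 and Mt4. Where the probes of each gene lie is not given in the sources used here, so that binding of a probe to a related transcript was not tested. Cores of the metal response element, searched as TGCACNC and TGCGCNC on both strands in the 250 bases before the start codon, occur 5 times for Mt1, 4 times for Mt2 and 1 time for Mt4. They are listed by the distance of their first base on the plus strand from the start codon, because they are the letters by which zinc-responsive promoters are usually recognised.
Mt1 core, 245 bases before: TGCACAC
Mt1 core, 220 bases before: TGCACTC
Mt1 core, 202 bases before: TGCGCTC
Mt1 core, 138 bases before, minus strand: TGCACCC
Mt1 core, 124 bases before: TGCGCCC
Mt2 core, 226 bases before, minus strand: TGCGCAC
Mt2 core, 172 bases before, minus strand: TGCACAC
Mt2 core, 153 bases before, minus strand: TGCACGC
Mt2 core, 119 bases before: TGCGCTC
Mt4 core, 129 bases before, minus strand: TGCACAC

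Among 32817 RefSeq promoter windows of GRCm38, each the 250 bases before a start of transcription, 21.4% hold at least 1 such core and 1.26% at least 3. Counted in that window, Mt1 has 1 core, Mt2 has 3 and Mt4 has 1. The cores listed above lie before the start codon, which is another window, so that these shares do not apply to their number. A match is a description of the letters and not evidence of a bound factor.

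After the filters of the study, 8875 wildtype and 8617 Eppk1-/- cells were kept, with medians of 4941 and 4992 UMIs per cell, and 8583 and 8315 of them were assigned to a class by markers. Class names below stand for cells gated on the markers of that type, keratinocyte-like and so on, and none of the 3 genes was among the markers. Cells of both mice shared the droplet run, and the libraries have 1211 droplet barcodes in common. Eppk1, the deleted gene, stood at 2977 counts per 1000000 UMIs (CPM) in keratinocytes of the wildtype against 780 CPM in those of the knockout. It was at 1076 and 71.9 CPM in basal cells, but at 6659 and 3724 CPM in granular cells. Whether the probes lie outside the deleted part is not given in the sources used here, and the part of the remaining signal in the granular results was not tested. One group stands apart from its label: of the 180 Eppk1-/- granular cells, 49 belonged to a cluster of 56 cells with no wildtype cell. Of these 56 cells, 46 lay in droplets shared with the other library, and their median was 1873 UMIs. Granular values are therefore given with and without that cluster.

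Mt2 and Mt1 were found throughout the skin, while Mt4 was almost restricted to keratinocytes. Of all Mt4 UMIs, 98.2% in the wildtype and 97.4% in the knockout came from keratinocytes, which held 62.0% and 48.7% of the UMIs of all genes. Spinous cells alone gave 82.9% and 84.4% of Mt4 UMIs. Of Mt1 UMIs, keratinocytes gave 64.8% and 45.9%, fibroblasts 20.3% and 30.5%, and macrophages 10.4% and 16.9%. Of Mt2 UMIs, keratinocytes gave 71.5% and 60.9%, and basal cells alone 53.5% and 44.4%. The libraries differ in their makeup, with 5666 wildtype and 4181 Eppk1-/- keratinocytes and 1788 and 2734 fibroblasts, so that these shares follow the number of cells sampled as well as the level per cell.

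**Figure D1:**
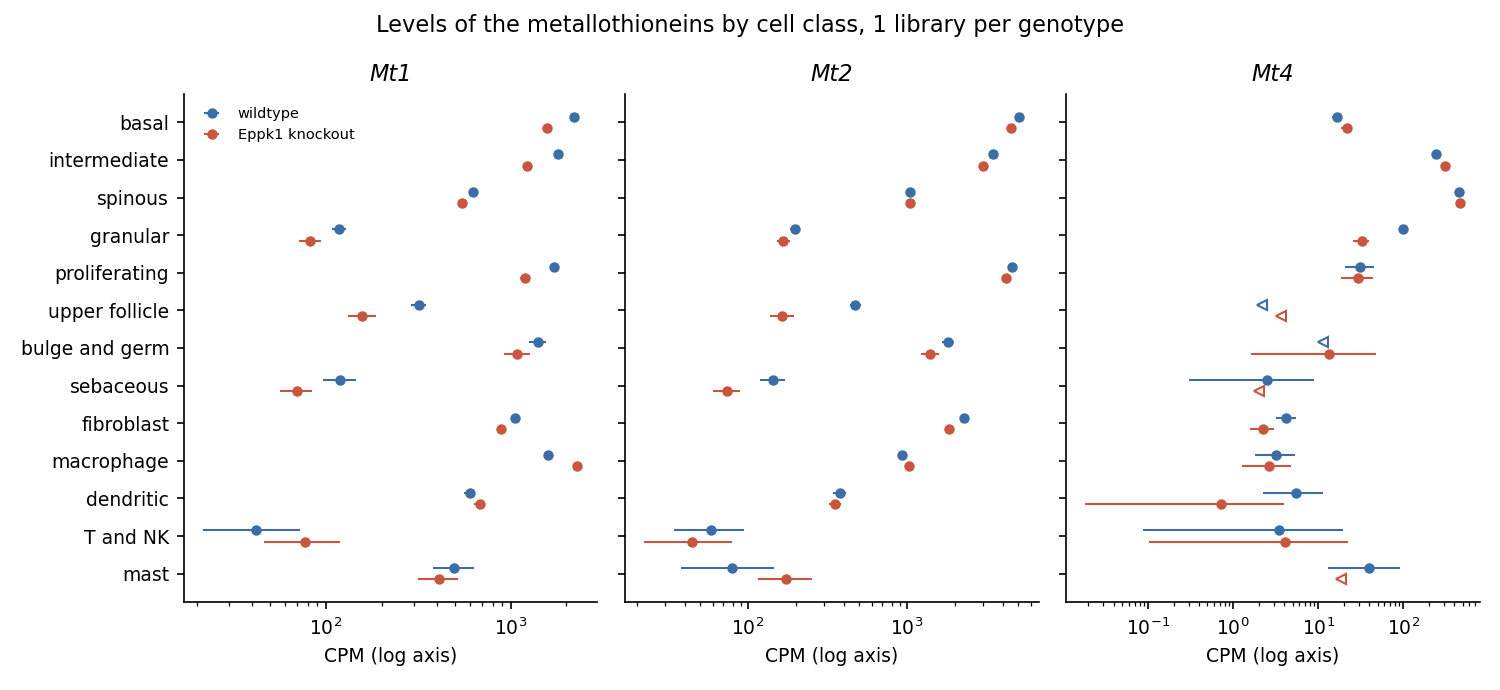
Level of Mt1, Mt2 and Mt4 in CPM (log axis) in 13 classes of skin cells, wildtype and Eppk1-/- library, with exact 95% Poisson intervals as bars. Hollow triangles mark classes with 0 UMIs, drawn at the level that a count of 0 allows. Mt1 and Mt2 are highest in basal, proliferating and intermediate keratinocytes, apart from Mt1 in Eppk1-/- macrophages, and Mt4 is highest in spinous cells at 457 and 462 CPM.

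Levels are given for each gene by itself, since a UMI count of 2 genes read with different probes cannot be compared as a level. Mt1 was highest among wildtype classes in basal cells, at 2193 CPM. It was at 1814 CPM in intermediate keratinocytes, 1726 CPM in proliferating keratinocytes, 1586 CPM in macrophages, 1404 CPM in bulge and germ cells of the follicle and 1062 CPM in fibroblasts. Intervals of neighbours in this order overlapped for intermediate and proliferating cells and for macrophages and bulge and germ cells, and not for the other pairs. In the Eppk1-/- library macrophages came first at 2288 CPM and basal cells next at 1573 CPM. The lowest Mt1 levels were in cornified cells, at 32.6 and 31.0 CPM on 31 and 18 UMIs. The next lowest were T and NK cells in the wildtype, at 41.7 CPM on 12 UMIs, and sebaceous cells in the knockout, at 69.4 CPM.

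Mt2 was highest in basal cells of both libraries, at 5078 and 4518 CPM, and next in proliferating keratinocytes, at 4558 and 4211 CPM. It was at 3472 and 2999 CPM in intermediate cells, 2286 and 1826 CPM in fibroblasts, 1814 and 1398 CPM in bulge and germ cells, and 1047 and 1040.1 CPM in spinous cells. Macrophages had 930.2 and 1023 CPM and dendritic cells 377 and 353 CPM. Sebaceous cells were lower, at 143 and 73.5 CPM. Basal and dividing keratinocytes thus held the highest Mt2 levels in both mice.

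The number of Mt1 UMIs per 100 Mt2 UMIs differed between cell types far more than its counting error. It was 46.4 (95% interval 45.9 to 46.9) in wildtype and 37.9 (37.4 to 38.5) in Eppk1-/- keratinocytes. Fibroblasts were close to that, with 46.5 and 48.8. Macrophages had 171 (164 to 177) and 224 (215 to 232), and dendritic cells 159 (142 to 179) and 193 (173 to 215). Within keratinocytes, proliferating cells had the lowest of the well-counted ratios, 37.9 and 28.4, basal cells had 43.2 and 34.8, and spinous cells 60.1 and 52.2. Among other classes, sebaceous cells had 83.5 and 94.5 and upper follicle cells 67.3 and 96.3. Mast cells had 620 (316 to 1356) and 236 (149 to 381), on 10 and 28 Mt2 UMIs. Both kinds of mononuclear phagocyte had more Mt1 per Mt2 than keratinocytes as a whole and fibroblasts on the same probe sets in each mouse. Mast cells did so too, so that the excess was not particular to phagocytes.

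Mt4 was the only one of the 3 with a sharp onset during differentiation. Basal cells had 16.6 CPM (wildtype) and 21.6 CPM (Eppk1-/-), and it was at 242 and 311 CPM in intermediate cells and at 457 and 462 CPM in spinous cells. From basal to spinous cells this was a rise of 27.4-fold in the wildtype (log2 4.78, 95% interval 4.596 to 4.97) and of 21.4-fold in the knockout (4.42, 4.23 to 4.63). Mt1 and Mt2 went the other way. Mt1 differed between spinous and basal cells by a log2 value of -1.80 and -1.53, and Mt2 by -2.28 and -2.12. Over all genes with at least 50 UMIs, 14.4% of wildtype and 15.9% of Eppk1-/- genes were higher in spinous cells by the size rule used throughout, a log2 ratio of 0.5, and 41.5% and 33.1% were lower. The fall of Mt1 and Mt2 is of a kind that many genes showed, while the rise of Mt4 was in the smaller group.

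Among the cells kept, Mt4 did not stay high in the latest stages. Granular cells had 99.8 CPM on 429 UMIs (wildtype) and 32.4 CPM on 87 UMIs (Eppk1-/-), which differs from spinous cells by a log2 value of -2.19 and -3.83. In cornified cells it was at 27.3 and 24.1 CPM on 26 and 14 UMIs. That class is named by its marker score and does not stand for dead cells. Its cells had medians of 18155 and 18066 UMIs. Granular markers summed to 213631 and 218957 CPM in it, and cornified markers to 144540 and 152342 CPM. The background of genes lower in granular than in spinous cells by the size rule was 43.2% for the wildtype and 48.5% for the knockout. Mt1 differed over the same step by -2.42 and -2.72 and Mt2 by -2.41 and -2.64. Casp14, the caspase of cornifying keratinocytes, was higher in granular cells by 1.12 and 1.57, as were 17.1% and 17.0% of all genes by the size rule. Granular and cornified cells as 1 class were above basal cells for Mt4 by 2.38 (2.16 to 2.61) in the wildtype and by 0.52 (0.16 to 0.87) in the knockout, where 17.0% and 18.0% of all genes were higher by the size rule. The knockout value was 0.29 without droplets shared by both libraries and 2.53 with no filter on cells.

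A finer series of 11 steps placed the peak of Mt4 among the cells kept. The steps were set by how far the spinous score of a cell led its basal score. Granular and cornified scores set the later ones. Cells with the basal score furthest ahead had Mt4 at 4.14 CPM (wildtype) and 4.12 CPM (Eppk1-/-), and those of the next step had 8.20 and 8.68 CPM. At the third step it was at 26.9 and 75.7 CPM, the step at which the libraries differed most before the granular layer, and at the fourth it was at 238 and 285 CPM. The highest level was at step 7, the spinous cells with the largest lead, with 774 and 657 CPM. It was at 326 and 300 CPM at the next step, where granular markers begin, and at 112 and 39.1 CPM and then 94.7 and 29.8 CPM in the 2 granular steps. Mt1 went from 2602 and 1884 CPM at the first step to 32.6 and 31.0 CPM at the last, and Mt2 from 5846 and 5239 CPM to 21.03 and 82.6 CPM. Both genes were lower at each later step than at the one before it, in each library. Casp14 was at 12.6 and 11.8 CPM at the first step and at 552 and 375 CPM at the last. In the knockout it was highest at step 10, at 438 CPM. Some cells of the basal or intermediate classes are in no step. The markers that set the steps are also products of these cells, and 597 of 9847 keratinocytes lay within 0.05 of the limits between basal, intermediate and spinous scores.

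**Figure D2:**
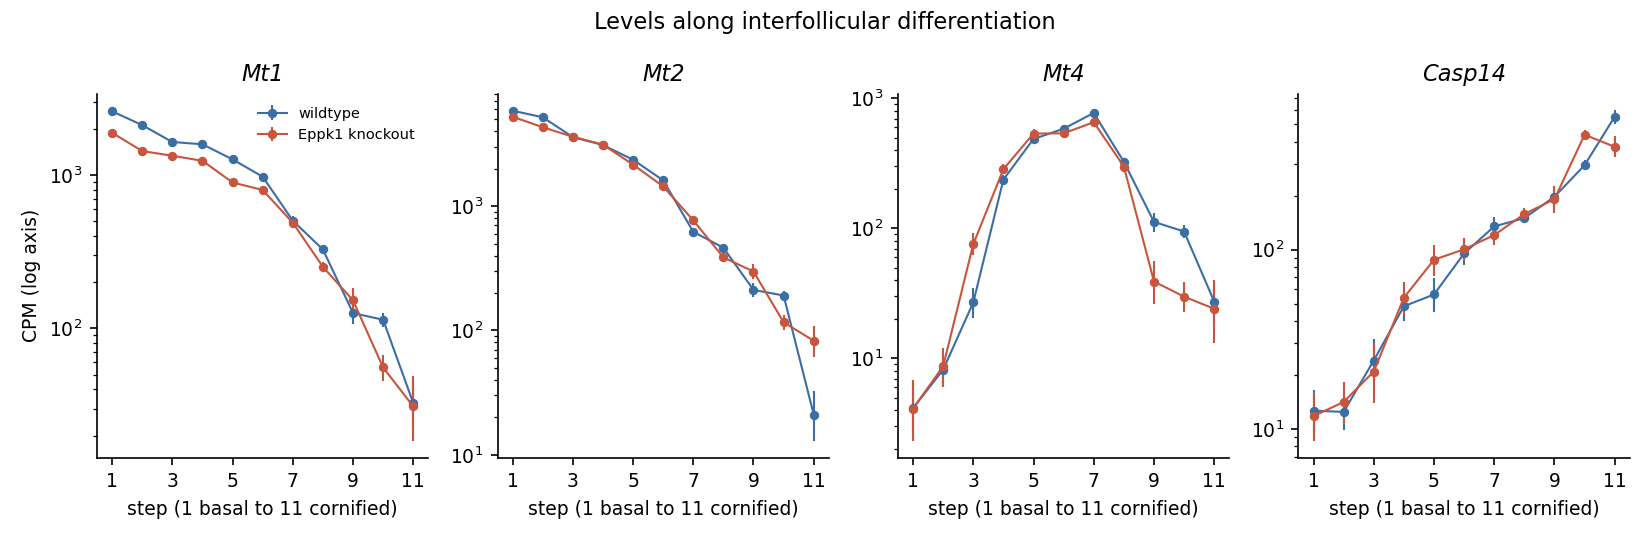
Level of Mt1, Mt2, Mt4 and Casp14 in CPM (log axis) over 11 steps of keratinocyte differentiation, from cells with the basal score furthest ahead (step 1) to cornified cells (step 11), in both libraries with exact 95% Poisson intervals. Mt4 peaks at step 7 with 774 and 657 CPM, and Mt1 and Mt2 decline. Casp14 is highest at step 11 in the wildtype (552 CPM) and at step 10 in the knockout (438 CPM, then 375 CPM).

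Late differentiation genes outside the gate behaved otherwise. Of 23 measured members of that list in both libraries, 22 in the wildtype and 21 in the knockout were higher in spinous than in basal cells by the size rule, with medians of 4.63 and 4.50 on the log2 scale, near the Mt4 value of 4.78 and 4.42. From spinous to granular cells, 14 and 15 of them were higher again and 4 and 4 lower, with medians of 1.21 and 1.57, while Mt4 was lower. Serpinb12, a serpin of epithelial cells, is one of the members with the course of Mt4: it was at 1.50 and 0.599 CPM in basal, 151 and 54.9 CPM in spinous, and 56.1 and 28.3 CPM in granular cells. By level Mt4 was thus highest in the spinous layer among the cells kept, while most of the list was highest later.

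Upper follicle keratinocytes had no Mt4 UMI. In this class, where keratinocytes also differentiate, 0 UMIs were counted among 232 wildtype and 140 Eppk1-/- cells, which allows up to 2.19 and 3.66 CPM. Mt4 was at least 209-fold lower there than in wildtype spinous cells and at least 126-fold lower than in Eppk1-/- spinous cells, set against the floor of 3 counts over the class. Late differentiation genes were not absent from the same cells: 20 of 22 measured members in the wildtype and 16 of 20 in the knockout were higher in upper follicle than in basal cells by the size rule, which 26.5% and 28.7% of all genes passed. Against spinous cells, 14 and 15 of 23 measured members were lower in the upper follicle by the size rule and 4 and 3 higher. The medians of that contrast were -1.43 and -1.41, and the share of all genes for it is not given here. Serpinb12, a member of the list, also had 0 UMIs in wildtype upper follicle cells, at least 69.3-fold below wildtype spinous cells. Bulge and germ cells had 0 and 2 Mt4 UMIs, the latter at 13.2 CPM, too few to place them against basal cells. Outside keratinocytes Mt4 was at 4.19 and 2.22 CPM in fibroblasts and at 3.21 and 2.64 CPM in macrophages, where the 10 keratinocyte markers also summed to between 853 and 1373 CPM.

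Shares of cells with a UMI show the same contrast. After each cell was thinned to 2000 UMIs, which left out 1122 cells of each library as too shallow, 46.3% (wildtype) and 48.5% (Eppk1-/-) of spinous cells had an Mt4 UMI (67.8% and 69.1% without thinning, medians of 6883 and 6516 UMIs). The gene was found in 27.3% and 35.1% of intermediate and in 2.11% and 2.52% of basal cells. In fibroblasts, which should lack the gene, the share was 0.732% and 0.395% (1.68% and 1.02% without thinning, medians of 6870 and 6175 UMIs). Basal cells were above that level in both libraries. In granular cells the share was 13.1% and 6.71% (40.9% and 19.4% without thinning, medians of 18028 and 11746.5 UMIs), with overlapping intervals. No upper follicle cell had an Mt4 UMI, 0 of 215 and 0 of 131 thinned cells, which allows shares of up to 1.40% and 2.29%.

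Mt2 was found in 91.6% of thinned basal cells in each library, and Mt1 in 84.7% and 81.9%. The spread of Mt1 over basal cells was wider than counting alone gives, with a variance of 7.73 times the mean in the wildtype and 4.38 times in the knockout, where a Poisson count gives equality. Mt1 and Mt2 moved together from cell to cell. Over thinned keratinocytes their Pearson r was 0.77 in 5062 wildtype and 0.68 in 3654 Eppk1-/- cells. It was 0.75 and 0.66 within basal cells, 0.75 and 0.56 within spinous cells, 0.69 and 0.62 within fibroblasts, and 0.54 and 0.55 within macrophages. These are descriptions over cells that share a library. For Mt4 the values over keratinocytes were weak, with r of -0.02 and -0.05 to Mt1 and of -0.05 and -0.08 to Mt2. Within spinous cells they were 0.14 and 0.09 to Mt1 and 0.14 and 0.12 to Mt2, and the highest, in 187 wildtype intermediate cells, were 0.26 and 0.37. In sparse counts such values are no finding.

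Between the mice, none of the 3 genes passed the size rule over all keratinocytes, which 8.55% of 11981 genes did. Mt1 stood at 1231 CPM (wildtype) against 919 CPM (Eppk1-/-), a log2 ratio of -0.42 (-0.44 to -0.40), and 6.93% of genes had a lower ratio. It was past the rule after thinning (-0.53) and as a mean over cells (-0.52). Mt2 was at 2654 and 2423 CPM, a ratio of -0.13 (-0.15 to -0.12). Mt4 was at 179 and 187 CPM, a ratio of 0.06 (0.01 to 0.11). The median ratio of all genes was -0.02. Mt1 was thus lower in the Eppk1-/- keratinocytes, Mt2 slightly lower and Mt4 close to equal, all with intervals that exclude 0. These intervals take each UMI as independent. Over thinned wildtype keratinocytes the variance was 7.81, 12.9 and 3.86 times the mean for Mt1, Mt2 and Mt4. The intervals therefore cover neither the spread between cells nor that between mice, which is not known. The Mt4 value changes sign when the stages are weighted by their wildtype shares (-0.01) and with no filter on cells (-0.12).

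By stage, the Mt1 ratio was below 0 with its whole interval in each of the 7 keratinocyte classes with at least 20 UMIs in each library. In basal cells Mt1 was at 2193 and 1573 CPM (-0.48, -0.51 to -0.45), where 0 of the 3 genes and 9.32% of all genes passed the size rule. After thinning and as a mean over cells the basal ratio was past it, at -0.53 each. In intermediate cells it was at 1814 and 1234 CPM (-0.55, -0.66 to -0.45) and in proliferating cells at 1726 and 1196 CPM (-0.53, -0.65 to -0.41). These were each the only member past the rule in their class, which 8.54% and 9.9% of all genes passed in that direction. Both lay near the limit: the intermediate ratio was -0.34 with a stricter gate, and the proliferating ratio -0.49 with that gate and -0.46 with the Seurat clusters. In spinous cells Mt1 differed less, with 630 and 543 CPM (-0.21, -0.27 to -0.16). The libraries did not overlap in their counting intervals in any of these 4 classes, and the Eppk1-/- library was the lower one in each.

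Mt2 was closer between the libraries than Mt1 in the same classes. Its ratio was -0.17 (-0.19 to -0.15) in basal, -0.21 (-0.28 to -0.14) in intermediate, -0.11 (-0.18 to -0.05) in proliferating and -0.01 (-0.05 to 0.03) in spinous cells, where 9.45% of all genes and none of the 3 members passed the rule. Mt4 was higher in the Eppk1-/- library at the 2 earliest stages that hold it, with ratios of 0.38 (0.10 to 0.65) in basal cells on 244 and 216 UMIs and 0.36 (0.13 to 0.59) in intermediate cells on 312 and 295 UMIs. The libraries differed at the third step (26.9 and 75.7 CPM), and not at the first 2 steps, where the levels were near equal. Of the basal cells nearest to the limit of the class, those in the series fall in the fourth step, together with intermediate and spinous cells. They were not taken singly, and some basal or intermediate cells are in no step. The basal Mt4 ratio was past the rule with the Seurat clusters (0.51), with a stricter gate (0.61), without the highest doublet scores (0.63) and as a mean over cells (0.55). In spinous cells, which hold most of it, the Mt4 ratio was 0.02 (-0.04 to 0.07). The counting intervals of both libraries overlapped there.

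Granular cells were the stage at which Mt4 differed most. Levels of 99.8 CPM (90.6 to 110) and 32.4 CPM (25.9 to 40.0) gave a log2 ratio of -1.62 (-1.97 to -1.29) for the knockout over the wildtype, and 0.106% of 7522 genes had a lower one. The lower direction of the rule held 8.56% of all genes and, of the members, Mt4 and Mt1. Without the cluster of 1 library Mt4 was at 32.1 CPM in 131 Eppk1-/- cells with a median of 19271 UMIs, against 18028 in the wildtype, and the ratio was -1.63. Without droplets shared by both libraries it was -1.85. Mt1 was at 117 and 82.3 CPM (-0.51, -0.75 to -0.28) and Mt2 at 197 and 166 CPM (-0.24, -0.41 to -0.08), ratios that moved to -0.87 and -0.80 without the cluster of 1 library. The Mt1 ratio was short of the rule with no filter on cells (-0.36), after thinning (-0.27) and with TMM scaling or centring (-0.42). As a mean over cells, which counts shallow cells as much as deep ones, Mt1 was higher in the Eppk1-/- library (0.55), and so was Mt2 (0.84), while Mt4 stayed lower in each alternative, from -1.85 to -0.87. The granular markers that set the class summed to 47716 CPM (wildtype) and 73448 CPM (Eppk1-/-), and the cornified markers to 3661 and 8613 CPM. The 23 measured late differentiation genes outside the gate had a median ratio of 0.04 in granular cells, against -0.09 for all genes. Whether the cells of the 2 libraries sit at the same point of the stage was not tested. Within both granular steps taken singly Mt4 was lower in the Eppk1-/- library, but the part of the marker difference in the Mt4 ratio was not tested.

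Serpinb12, which followed Mt4 along the stages, was lower in Eppk1-/- keratinocytes as a whole, at 58.1 and 23.1 CPM (-1.33, -1.47 to -1.20). Mt4 and Serpinb12 therefore parted in spinous cells, where Serpinb12 was at 151 and 54.9 CPM and Mt4 at 457 and 462 CPM. Serpinb12 was not alone in this. Of 23 measured late differentiation genes, 20 had a ratio below 0 in spinous cells. By the rule 5 of them were lower and 0 higher, against 9.45% of all genes in either direction. Their median was -0.21, against 0.04 for all genes.

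In the upper follicle Mt1 was at 319 and 157 CPM (-1.02, -1.32 to -0.73) and Mt2 at 474 and 163 CPM (-1.53, -1.82 to -1.27), and both passed the rule, as did 7.05% of all genes in that direction. A few cells carried these sums. The tenth of cells with most UMIs of the gene held 79.0% of Mt1 and 89.2% of Mt2 UMIs in the wildtype, and 67.4% and 71.6% in the Eppk1-/- library. After thinning, Mt1 was found in 22.3% and 20.6% of upper follicle cells and Mt2 in 17.7% and 19.1%, the Mt1 ratio was -0.08 and the Mt2 ratio 0.05. With a stricter gate the Mt1 ratio was -0.38 and the Mt2 ratio -1.50. Without the highest doublet scores the ratios were -0.54 for Mt1 and -0.77 for Mt2. The share of cells with a UMI thus differed by less than its counting error. Fibroblast markers summed to 708 and 224 CPM over 7 markers in this class, and their part in the ratios was not tested.

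Sebaceous cells had lower levels of Mt1, 120 and 69.4 CPM (-0.78, -1.20 to -0.37), and of Mt2, 143 and 73.5 CPM (-0.96, -1.35 to -0.57), in the Eppk1-/- library. Both passed the rule in a class where 11.2% of genes did so in that direction, on 52 and 80 cells and on 96 to 115 UMIs for each gene and library. With the cells of the Seurat clusters they were -1.79 and -1.89, as a mean over cells -0.52 and -0.59, and after thinning -0.82 and -0.99. A few sebaceous cells carried most of the Mt2 sums. The tenth of cells with most UMIs of the gene held 89.6% and 91.7% of Mt2 UMIs, and 54.2% and 49.5% of Mt1 UMIs. After thinning, Mt2 was found in 10.0% and 5.19% of sebaceous cells and Mt1 in 22.0% and 14.3%, with overlapping intervals. In bulge and germ cells Mt1 was at 1404 and 1086 CPM (-0.37) and Mt2 at 1814 and 1398 CPM (-0.37), short of the rule, which 21.4% of all genes passed in either direction. In cornified cells Mt2 was at 21.03 and 82.6 CPM on 20 and 48 UMIs (1.95, 1.19 to 2.80), where 7.4% of genes were higher by the rule. That difference has the opposite sign with the cells of the Seurat clusters (-0.54) and with no filter on cells (-0.06).

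**Figure D3:**
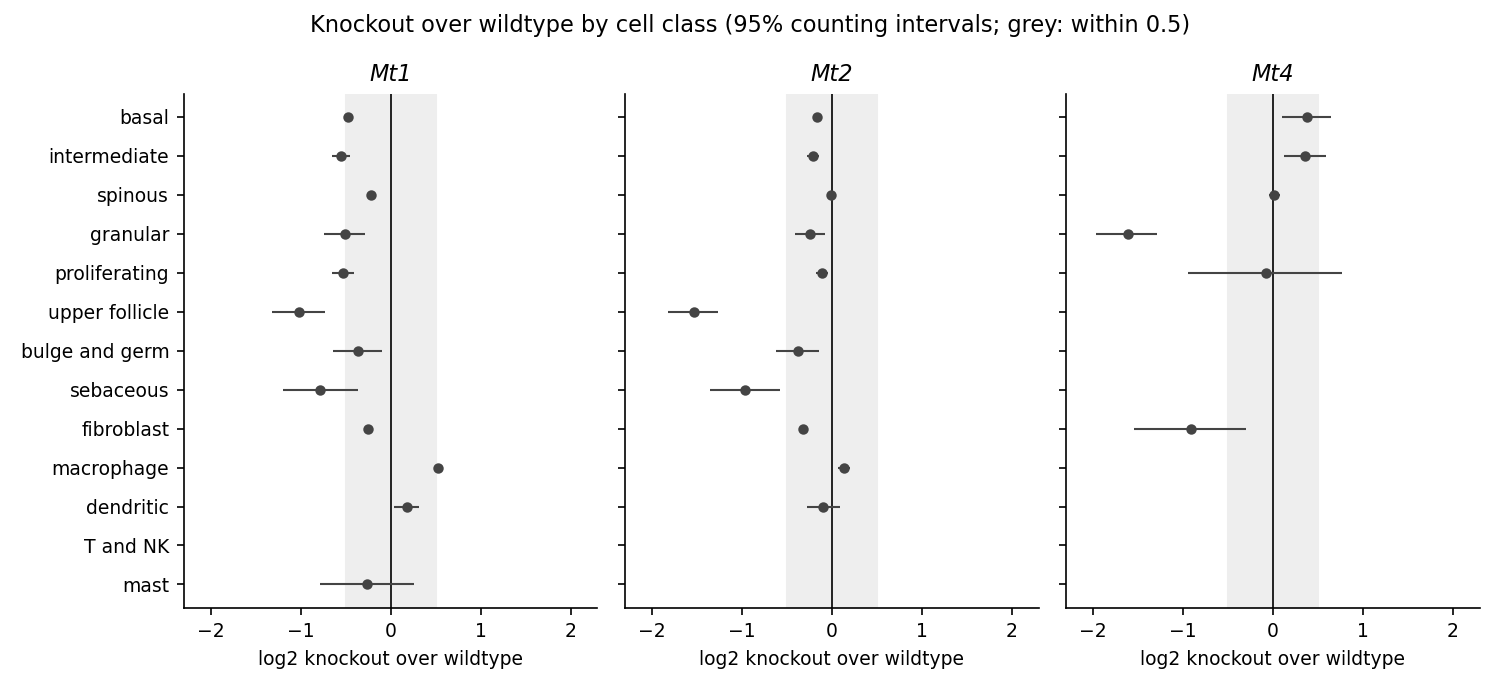
Log2 ratio of Eppk1-/- over wildtype CPM for Mt1, Mt2 and Mt4 in classes with at least 20 UMIs of the gene in each library, with exact 95% counting intervals. A grey band marks ratios within the size rule of 0.5 in either direction. Mt1 lies below 0 in all keratinocyte classes shown and at 0.53 in macrophages, and Mt4 in granular cells is at -1.62.

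Among other cell types, Mt1 was higher in the Eppk1-/- library in macrophages and, by less, in dendritic cells. The 551 wildtype cells had 1586 CPM and the 804 Eppk1-/- cells 2288 CPM, a log2 ratio of 0.53 (0.48 to 0.57), where 6.93% of 9143 genes were higher by the rule and the median of all genes was -0.13. The ratio was short of the rule with the Seurat clusters (0.48), after thinning (0.45) and as a mean over cells (0.35). Mt2 was at 930.2 and 1023 CPM (0.14, 0.07 to 0.20). The class was a mixture of clusters in different numbers. In the cluster led by Ifit2, Ifi44 and Ifit1, with 238 and 225 cells, Mt1 was at 1219 and 2516 CPM (1.04) and Mt2 at 822 and 1420.1 CPM (0.79). In the cluster led by Slc40a1, Ptx3 and Scd1, with 285 and 555 cells, Mt1 was at 2363 and 2214 CPM (-0.09) and Mt2 at 1153 and 831 CPM (-0.47). Mt1 was thus higher in Eppk1-/- cells of the first cluster only, while the second, which had the higher wildtype level, held more of the Eppk1-/- macrophages. Dendritic markers summed to 17156 and 41164 CPM in the macrophage class, and median depth was 7511 and 4800 UMIs. Their part in the ratio was not tested.

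Of 18 immediate early genes, which respond within minutes to handling and growth signals, 9 were higher in Eppk1-/- macrophages by the rule, against 6.93% of all genes, and 0 lower, with a median of 0.48. Egr2 had a log2 ratio of 1.19. Of 13 heat shock genes 3 were higher and 1 lower, the latter direction holding 19.1% of all genes, with a median of 0.24, and Hspa1a was at 0.89 and Hspa1b at 0.87. The shift was not particular to these 2 lists. Of 17 measured late differentiation genes, a list of keratinocyte genes, 7 were higher and 2 lower in the same class, with a median of 0.44. The part of these lists in the Mt1 ratio was not tested.

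In fibroblasts Mt1 was at 1062 and 891 CPM (-0.25, -0.29 to -0.22) and Mt2 at 2286 and 1826 CPM (-0.32, -0.35 to -0.30), neither past the rule. Mt4, on 57 and 39 UMIs, was at -0.91 (-1.54 to -0.30) and was the 1 member past it, where 7.74% of genes were lower. Its sign changed with the Seurat clusters (0.31) and with a stricter gate (0.15), it was -0.13 as a mean over cells, and keratinocyte markers in the class summed to 1179 and 853 CPM. The 4 fibroblast clusters differed among themselves for Mt1 and Mt2. In the one led by Smpd3, Akr1c18 and Aldh1a3 Mt1 was at 1307 and 817 CPM (-0.68) and Mt2 at 3128 and 1974 CPM (-0.66). In the one led by Angpt4, Angptl7 and Kcnip4 Mt1 was at 658 and 980 CPM (0.57) and Mt2 at 1365 and 1666 CPM (0.29). The other clusters lay between, at -0.09 and -0.30 for the cells led by Slc26a7, Coch and Akr1cl and at -0.04 and 0.11 for those led by Igfbp2, Pla2g5 and Adcy1. Wildtype clusters had Mt1 levels from 658 to 1307 CPM, a spread that was smaller in the Eppk1-/- library, from 817 to 1108 CPM.

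**Figure D4:**
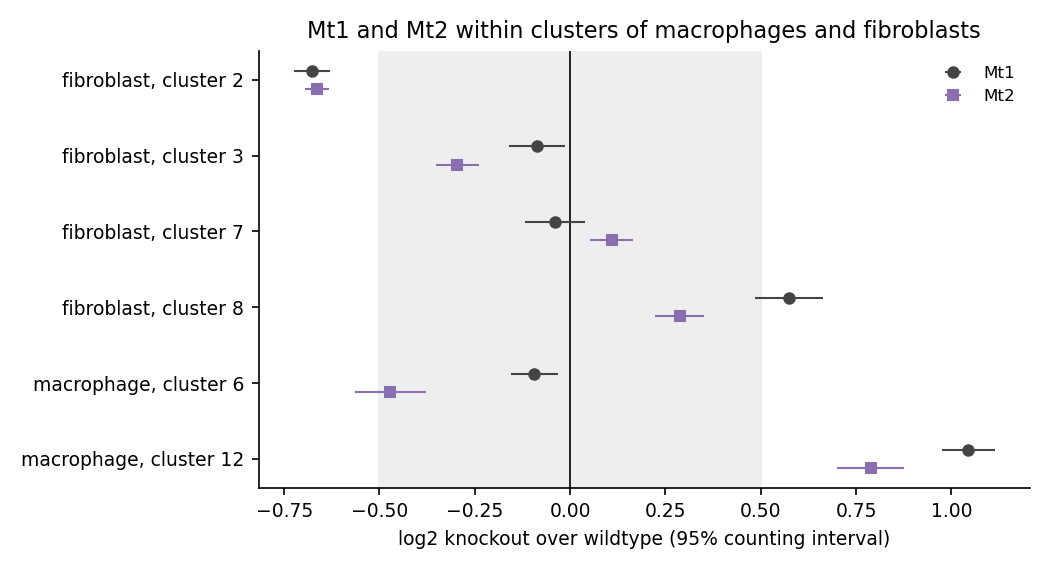
Log2 ratio of Eppk1-/- over wildtype CPM for Mt1 and Mt2 within 4 fibroblast and 2 macrophage clusters, with exact 95% counting intervals. A grey band marks ratios within 0.5 in either direction, and clusters are labelled by number. The Smpd3 fibroblasts (cluster 2) lie below 0 and the Angpt4 fibroblasts (cluster 8) above it. The Ifit2 macrophages (cluster 12) are at 1.04 for Mt1.

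Dendritic cells had Mt1 at 600 and 679 CPM (0.18, 0.04 to 0.32) and Mt2 at 377 and 353 CPM (-0.10, -0.28 to 0.09), where 16.8% of all genes and 0 of the members passed the rule. Within both dendritic clusters the Mt1 ratio was below 0, at -0.21 and -0.29, opposite in sign to the class as a whole. Mast cells had Mt1 at 493 and 410 CPM (-0.27, -0.79 to 0.26), an interval that holds 0, in a class where 22.4% of genes passed the rule. T and NK cells had too few UMIs for a ratio.

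Of 25 measured genes of zinc and copper handling, 0 passed the rule between the libraries in keratinocytes, which 8.55% of all genes did, with a median of -0.02. Mtf1, the zinc-sensing activator of Mt1 and Mt2, was at 83.7 and 82.0 CPM (-0.03), and Slc30a1, the zinc exporter that MTF1 also induces, at 102 and 100.5 CPM (-0.02, -0.09 to 0.05). Slc39a10, a zinc importer, was at 0.07. The largest ratios were -0.44 for the importer Slc39a8, -0.42 for the exporter Slc30a6, -0.29 for Slc31a2, a relative of the copper importer, and -0.29 for the copper chaperone Cox17. In basal cells 1 of 24 members was lower by the rule, Slc39a8, at 57.5 and 32.7 CPM (-0.81). Of 14 NRF2 targets, the genes of the response to oxidants, 0 passed with a median of -0.03, and Hmox1 was at 0.05. Slc7a11 was at -0.32, Srxn1 at -0.30, Nqo1 at -0.24 and Gsr at -0.14. Of 13 heat shock genes 0 passed with a median of -0.05, with Hspa1a at -0.30, Hsph1 at -0.28, Hspb1 at -0.27 and Bag3 at 0.14. The NRF2 list differed by class. In fibroblasts 3 of 13 NRF2 targets were lower by the rule (7.74% of all genes) and 0 higher. Their median there was -0.36, against 0.05 for all genes. In granular cells 3 of 11 were higher and 0 lower, with a median of -0.02 against -0.09 for all genes. The part of an oxidant response in the Mt1 and Mt2 ratios was not tested.

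Of 18 immediate early genes 0 passed in keratinocytes, 16 had a ratio below 0 and the median was -0.12, with Socs3 at -0.42, Junb at -0.40, Btg2 at -0.39 and Nr4a1 at -0.28. The glucocorticoid response list had the lowest median of the 6 lists in keratinocytes as a whole. Of its 17 measured members, 6 were lower by the rule, a direction with 5.14% of all genes, and 0 higher, with a median of -0.22. Fkbp5, a chaperone of the glucocorticoid receptor, was at 67.8 and 20.04 CPM (-1.76, -1.90 to -1.62), Tsc22d3 at 131 and 71.5 CPM (-0.87), Zbtb16 at -0.86, Glul at -0.64 and Cebpd at -0.61. Lcn2 was at -3.72 on 1.79 and 0.117 CPM. In basal cells 5 of 15 were lower and 0 higher (9.32% of all genes in either direction), with a median of -0.25. In granular cells 5 of 15 were lower (8.56% of all genes) and 2 higher, with a median of -0.16. In fibroblasts 4 of 17 were lower (7.74%) and 0 higher, with a median of -0.32. In spinous cells 1 of 15 was higher and 1 lower (9.45% in either direction), with a median of -0.002. In macrophages 3 of 17 were higher (6.93%) and 2 lower (19.1%), with a median of 0.19. Mt1 and Mt2, both known to respond to glucocorticoids, had ratios of -0.42 and -0.13 in keratinocytes, short of the rule. The part of a glucocorticoid response in these ratios was not tested. Of 24 late differentiation genes 1 was higher, Rptn at 0.747 and 1.37 CPM, as were 3.41% of all genes, and 1 lower, Serpinb12, with a median of -0.10. Ly6d was at 0.37, Tgm1 at -0.33 and Casp14 at 0.09.

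**Figure D5:**
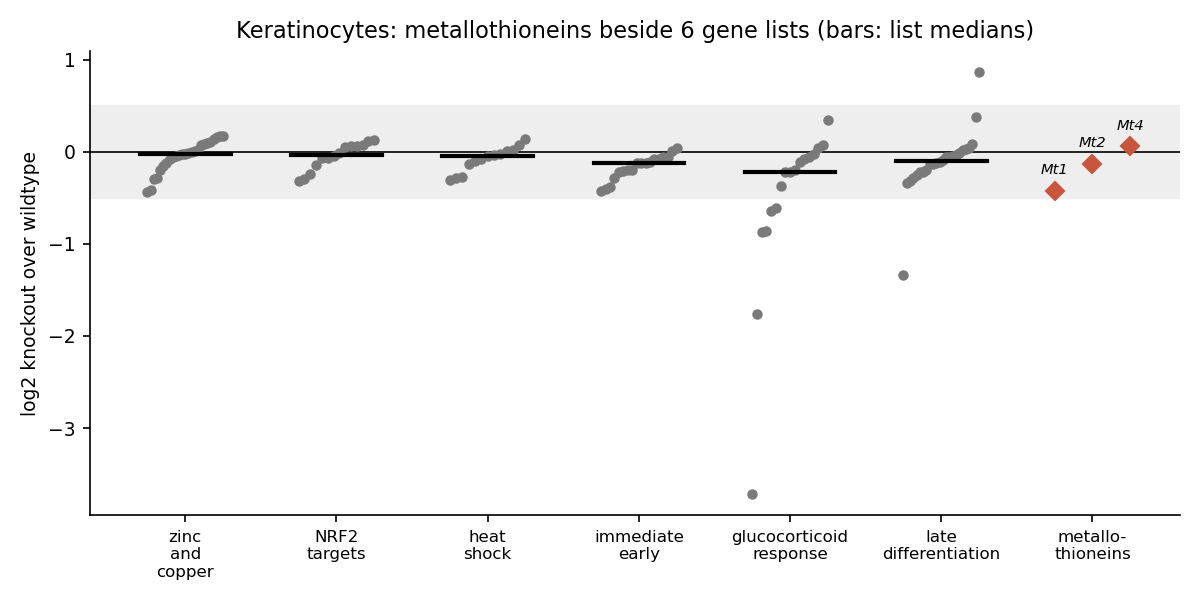
Log2 ratio of Eppk1-/- over wildtype CPM in keratinocytes for each measured gene of 6 lists, with the median of each list as a bar, beside Mt1, Mt2 and Mt4. The glucocorticoid response list has the lowest median, -0.22, and the lowest point is Lcn2 at -3.72 on few UMIs.

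Across 13 classes with at least 50 cells in each library, 26 points in all that share libraries and overlapping markers, the genes most like each member by Pearson r of log2(CPM + 10) were listed as a description. For Mt1 they were Tgfbi (0.90), Bri3 (0.89), Mt2 (0.88), Utp14b (0.84) and Myof (0.84). Those nearest to Mt2 were Bmp2 (0.90), Zcchc14 (0.90), Trip6 (0.89), Mt1 (0.88) and Thbs1 (0.87). Mt4 was most like Serpinb12 (0.87), Ggct (0.87), Tollip (0.86), Cyp3a13 (0.85) and Sgms1 (0.85). Mt1 and Mt2 were thus among the 5 genes most like each other out of 10855, while Mt4 had r of 0.19 to Mt1 and 0.33 to Mt2.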

How the data were processed

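Libraries were grouped by the genotype in their labels. UMI counts per gene and called cell were deposited by the authors as raw numbers from Cell Ranger 8.0.1 with mm10 (GRCm38). All values were whole numbers. The limits of the study's methods (UMIs from 200 to 45000, genes from 100 to 7500, mitochondrial share up to 10%) removed 304 and 194 cells. Of these, 265 and 185 were above the upper limit of UMIs. The 13 mitochondrial genes were then left out. Depth was 77638793 and 65118304 UMIs as deposited, and 60433943 and 52561917 UMIs in the cells and genes kept. Counting error is correspondingly small for Mt1 and Mt2.

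Each marker was scaled to its 95th percentile among cells with a UMI of it, and a cell took the type with the highest mean score if that was at least 0.3 and led by 0.1. The scoring rule was set after the data were seen. Clusters from Seurat 5.3.0 (R 4.3.3) were named by the gate and gave 97.8% of the 16898 gated cells the same type. That agreement is therefore not independent of the gate. Seurat and edgeR 4.0.16 (TMM factors only) were used for alternatives. UMIs were summed per class and given as CPM, and 0.5 UMI was added to both sums before the log2 ratio of Eppk1-/- over wildtype. Intervals are exact Poisson or Clopper-Pearson at 95%, and a count of 0 allows 3 counts. Shares of cells were taken after thinning to 2000 UMIs. Doublets were not removed in the values reported, and an alternative left out the top 5% by Scrublet score (scanpy 1.11.5). Backgrounds cover genes with at least 50 UMIs in the class. Scripts ran under Python 3.11.15 with scipy 1.17.1, numpy 2.4.6 and pandas 2.3.3. Only the ratios and their counting intervals were tested on simulated data, drawn as independent Poisson counts. That setting has no gating, thinning or spread between cells.

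The members, the gene lists and the comparisons were chosen with earlier results of these data known. Named were the members, Mt3, Mtf1, Slc30a1, Slc39a10, Fkbp5, Tsc22d3, Hmox1 and Casp14, and the 5 genes most like each member. Beside these, up to 4 members of each list with the largest absolute ratios in keratinocytes were named. Macrophage genes of the early and heat shock lists, and cluster leaders, were named after their values were seen.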

Additional observations from a re-analysis of the deposited data

Results flagged for a closer look

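Results with opposite directions in a pair of classes were listed; with 1 library per genotype none of these differences was tested. For Mt1 the log2 ratio of Eppk1-/- over wildtype was 0.53 in macrophages and -0.78 in sebaceous cells. For Mt2 it was 0.14 in macrophages and -0.96 in sebaceous cells. For Mt4 it was 0.060 in keratinocytes and -0.91 in fibroblasts, where the gene was at 4.19 and 2.22 CPM. Between keratinocyte stages, Mt4 was at 0.38 in basal and -1.62 in granular cells.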

How the results depend on the processing

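No paired analysis was possible because each genotype has 1 library and the labels give no replicate numbers. Of 363 alternative values for 35 results, 251 stayed within the counting interval of the value reported and 112 moved outside it. The sign changed in 36, of which 16 belong to results whose interval held 0 (Mt1 in mast cells, Mt2 in dendritic and spinous cells, Mt4 in spinous and proliferating cells) and 20 to the others. In keratinocytes Mt1 was at -0.53 after thinning, -0.52 as a mean over cells and -0.40 centred on the median gene. Mt2 there was at -0.19 after thinning, -0.21 as a mean over cells, -0.15 with stages weighted by wildtype shares, and -0.11 with Seurat clusters, a stricter gate, TMM scaling, centring or without the highest doublet scores. Mt4 there was at 0.22 after thinning and as a mean over cells, -0.12 with no filter on cells and -0.014 with stages weighted. In fibroblasts Mt1 was at -0.20 after thinning, -0.19 as a mean over cells, -0.30 with TMM and -0.31 centred, and Mt2 at -0.24, -0.27, -0.37 and -0.38 in the same order and -0.36 without the highest doublet scores. Within fibroblast clusters, chosen after seeing the data, Mt1 and Mt2 were at -0.68 and -0.66, -0.088 and -0.30, -0.039 and 0.11, and 0.57 and 0.29. Mt4 in late over basal cells was at 1.13 with Seurat clusters, 3.21 with a stricter gate, 3.75 with no filter and 2.69 without the highest doublet scores in the wildtype, and at 1.15 with a stricter gate, 2.53 with no filter and 0.97 after thinning in the Eppk1-/- library. Signs also changed for Mt1 in dendritic cells (-0.19 with Seurat clusters, -0.21 and -0.29 within clusters), in granular cells (0.55 as a mean over cells) and in bulge and germ cells (0.032 with a stricter gate), for Mt2 in granular cells (0.047 with no filter, 0.17 after thinning, 0.84 as a mean over cells), in cornified cells (-0.54 with Seurat clusters, -0.062 with no filter) and in the upper follicle (0.053 after thinning), for Mt4 in fibroblasts (0.31 with Seurat clusters, 0.15 with a stricter gate), and within the Slc40a1 macrophage cluster (-0.094 for Mt1 and -0.47 for Mt2). The cause of these changes was not tested. Mt1 in keratinocytes, basal, spinous and proliferating cells kept its sign in every alternative run, as did Mt4 in granular cells, for which the Seurat clusters gave no value. The Seurat clusters and the within-cluster values share cells with the main classes, and no setting adds a second mouse.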

Other observations

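Mt3 was nearly absent from keratinocytes, with 11 wildtype and 7 Eppk1-/- UMIs. Of the 48 and 33 UMIs in all kept cells, dendritic cells held 20 and 25 (15.8 and 18.0 CPM, 95% intervals 9.68 to 24.5 and 11.6 to 26.5). Fibroblasts had 1 UMI in each library and macrophages 1 and 0. The other wildtype UMIs lay in cells outside the classes given levels here.

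From basal to spinous cells 9 of 25 measured genes of zinc and copper handling were higher and 8 lower by a log2 ratio of 0.5 in the wildtype, and 10 and 8 in the knockout. Of all genes, 14.4% and 15.9% were higher and 41.5% and 33.1% lower. Mtf1 was higher in spinous than in basal cells by 0.60 and 0.53 and lower in granular than in spinous cells, by a log2 value of -0.93 and -1.09, so that it did not follow Mt1 and Mt2 at the first step. Slc30a1, the zinc exporter, was at 112 and 112 CPM in basal, 73.4 and 73.4 CPM in spinous, and 151 and 159 CPM in granular cells, the stage at which Mt1 and Mt2 were low.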
